A study of Mus musculus with 12 samples.

Results

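The lipid droplet and lipolysis genes described here are 10 named genes that encode proteins of the adipocyte fat droplet or enzymes and regulators of its breakdown: Plin1, Plin2, Plin4, Cidec, Pnpla2, Abhd5, G0s2, Lipe, Mgll and Adrb3. They were listed by name, with earlier results of these data known, out of 21938 protein-coding genes of the annotation, and all 10 were found in it. The measurement was chromatin immunoprecipitation followed by sequencing (ChIP-seq) of MOF, also called KAT8, a lysine acetyltransferase of histone H4, in visceral white adipose tissue. The animals were C57BL/6 mice of 8 weeks on a standard diet, either wild type (Mof+/+) or Mof heterozygous (Mof+/-), and the labels list 2 libraries each of MOF ChIP, H3 ChIP and input for either genotype. The values below come from 2 peak lists, 1 per genotype, with 19773 peaks for Mof+/+ and 731 for Mof+/-. Neither list carries a value per library, so no difference between the lists could be compared with the spread between animals, and no test was made. The lists do not give the reads of each library. A peak is a stretch of the genome where the ChIP held more fragments than the input, and its fold enrichment is a ratio made at the summit, where the peak caller adds 1 to the number of fragments and 1 to the input background before dividing the former by the latter.

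Fat is stored in adipocytes as triglyceride inside droplets that are coated by perilipins. In the fed state the coat restrains lipases. In fasting, noradrenaline acts on beta adrenergic receptors, cAMP rises, protein kinase A phosphorylates perilipin and hormone-sensitive lipase, and triglyceride is then cut stepwise to diglyceride, monoglyceride and free glycerol with release of a fatty acid at each step. PLIN1, PLIN2 and PLIN4 belong to the droplet coat, and CIDEC lets droplets fuse and grow. Adipose triglyceride lipase (ATGL, encoded by Pnpla2) makes the first cut, with ABHD5 as its coactivator and G0S2 as its inhibitor. Hormone-sensitive lipase (encoded by Lipe) makes the next cut and monoglyceride lipase (encoded by Mgll) the last. ADRB3 is the beta-3 adrenergic receptor of adipocytes.

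The peaks differed in place and in base composition, and 6 stretches around summits are printed first so that this can be seen. They were chosen to set peaks inside gene bodies beside peaks at gene starts and to show the only Mof+/- peak. All coordinates are GRCm38, counted from 1, and each sequence reads 5′ to 3′ on the strand of its gene, in lower case with every CpG dinucleotide in capitals. Bases annotated as UTR and bases outside the peak were left out, so some stretches are shorter than 300 bases. The Lipe stretch lies in the body of the gene around its strongest summit (chr7:25387901-25388200, minus strand) and holds 5 CpG sites. The Plin1 stretch is from the peak near the 3′ end of the gene (chr7:79721812-79722111, minus strand) and holds 7. The Plin4 stretch is from the widest peak of that gene (chr17:56103223-56103522, minus strand) and holds 4. The Pnpla2 stretch ends next to the summit at the gene start (chr7:141455464-141455606, plus strand) and holds 11 CpG sites in 143 bases. The Abhd5 stretch begins in coding sequence beside the start site (chr9:122351787-122351968, plus strand) and holds 23 in 182 bases. The Mgll stretch covers the summit of the Mof+/- peak (chr6:88727293-88727530, plus strand) and holds 3 in 238 bases, with an unbroken run of 22 A bases.
Lipe: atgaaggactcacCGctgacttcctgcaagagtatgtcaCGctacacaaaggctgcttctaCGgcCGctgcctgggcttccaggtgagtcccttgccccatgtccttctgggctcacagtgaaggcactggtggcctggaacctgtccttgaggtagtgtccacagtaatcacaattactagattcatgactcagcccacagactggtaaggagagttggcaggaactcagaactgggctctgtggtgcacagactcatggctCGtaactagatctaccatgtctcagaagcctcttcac
Plin1: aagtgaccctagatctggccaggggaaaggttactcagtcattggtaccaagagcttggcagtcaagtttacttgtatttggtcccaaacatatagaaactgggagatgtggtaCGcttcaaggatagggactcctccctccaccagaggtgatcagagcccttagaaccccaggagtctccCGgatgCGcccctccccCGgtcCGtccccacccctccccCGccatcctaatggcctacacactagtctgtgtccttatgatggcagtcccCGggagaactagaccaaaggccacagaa
Plin4: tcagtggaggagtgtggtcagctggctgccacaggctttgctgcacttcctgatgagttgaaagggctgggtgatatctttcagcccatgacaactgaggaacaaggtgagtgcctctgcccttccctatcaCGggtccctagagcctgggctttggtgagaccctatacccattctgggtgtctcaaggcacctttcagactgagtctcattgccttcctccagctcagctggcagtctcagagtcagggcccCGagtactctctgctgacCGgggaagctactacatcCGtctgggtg
Pnpla2: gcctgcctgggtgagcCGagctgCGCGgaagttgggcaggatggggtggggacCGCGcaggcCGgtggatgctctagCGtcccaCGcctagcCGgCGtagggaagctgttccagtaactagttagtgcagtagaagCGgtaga
Abhd5: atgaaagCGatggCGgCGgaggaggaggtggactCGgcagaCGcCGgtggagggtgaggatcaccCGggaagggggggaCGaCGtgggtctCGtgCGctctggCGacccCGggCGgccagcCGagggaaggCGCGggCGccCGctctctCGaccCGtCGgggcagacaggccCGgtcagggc
Mgll, Mof+/-: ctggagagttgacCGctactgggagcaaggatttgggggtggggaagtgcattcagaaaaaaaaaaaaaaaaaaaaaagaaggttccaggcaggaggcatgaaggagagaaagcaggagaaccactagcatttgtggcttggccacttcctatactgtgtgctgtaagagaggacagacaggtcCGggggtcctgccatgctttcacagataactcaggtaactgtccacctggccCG

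To see where MOF lay at these genes in wild-type tissue, peaks were counted in the gene body and within 3 kb of every annotated start site. In the Mof+/+ list 9 of the 10 genes had at least 1 peak, while 44.5% of all protein-coding genes did. Within 1 kb of a start site 8 of the 10 had a peak, against 41.0% of all genes. The exceptions were Adrb3, which had no peak under either rule, and Cidec, whose peaks lay far from its starts. There were 30 peaks in all. Lipe and Pnpla2 had 6 each, Plin4 had 5, Plin1 had 4, Mgll had 3, Cidec and G0s2 had 2 each, and Plin2 and Abhd5 had 1 each. Having 5 or more Mof+/+ peaks, a limit chosen after these values were seen, was true of 2.89% of protein-coding genes and of 3 of the 10, namely Lipe, Pnpla2 and Plin4. This count depends on the processing. With peaks kept up to a q-value of 0.01, Pnpla2 and Plin4 had 4 each and Lipe had 6. When each peak was given only to the gene with the nearest start site, Pnpla2 and Plin4 had 3 each and Lipe had 5. With peaks within 1000 bp merged, Lipe and Pnpla2 had 3 each and Plin4 had 2, and 0 of the 10 had 5 or more. The share of all protein-coding genes was not recomputed with merged peaks, so this 0 has no background beside it. The genes were not equally covered for their length. Peaks covered 46.5% of the 8546 bp searched for Pnpla2, 33.4% of the 12213 bp for Plin4, 27.5% of the 22184 bp for Lipe and 1.86% of the 106949 bp for Mgll.

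**Figure D1:**
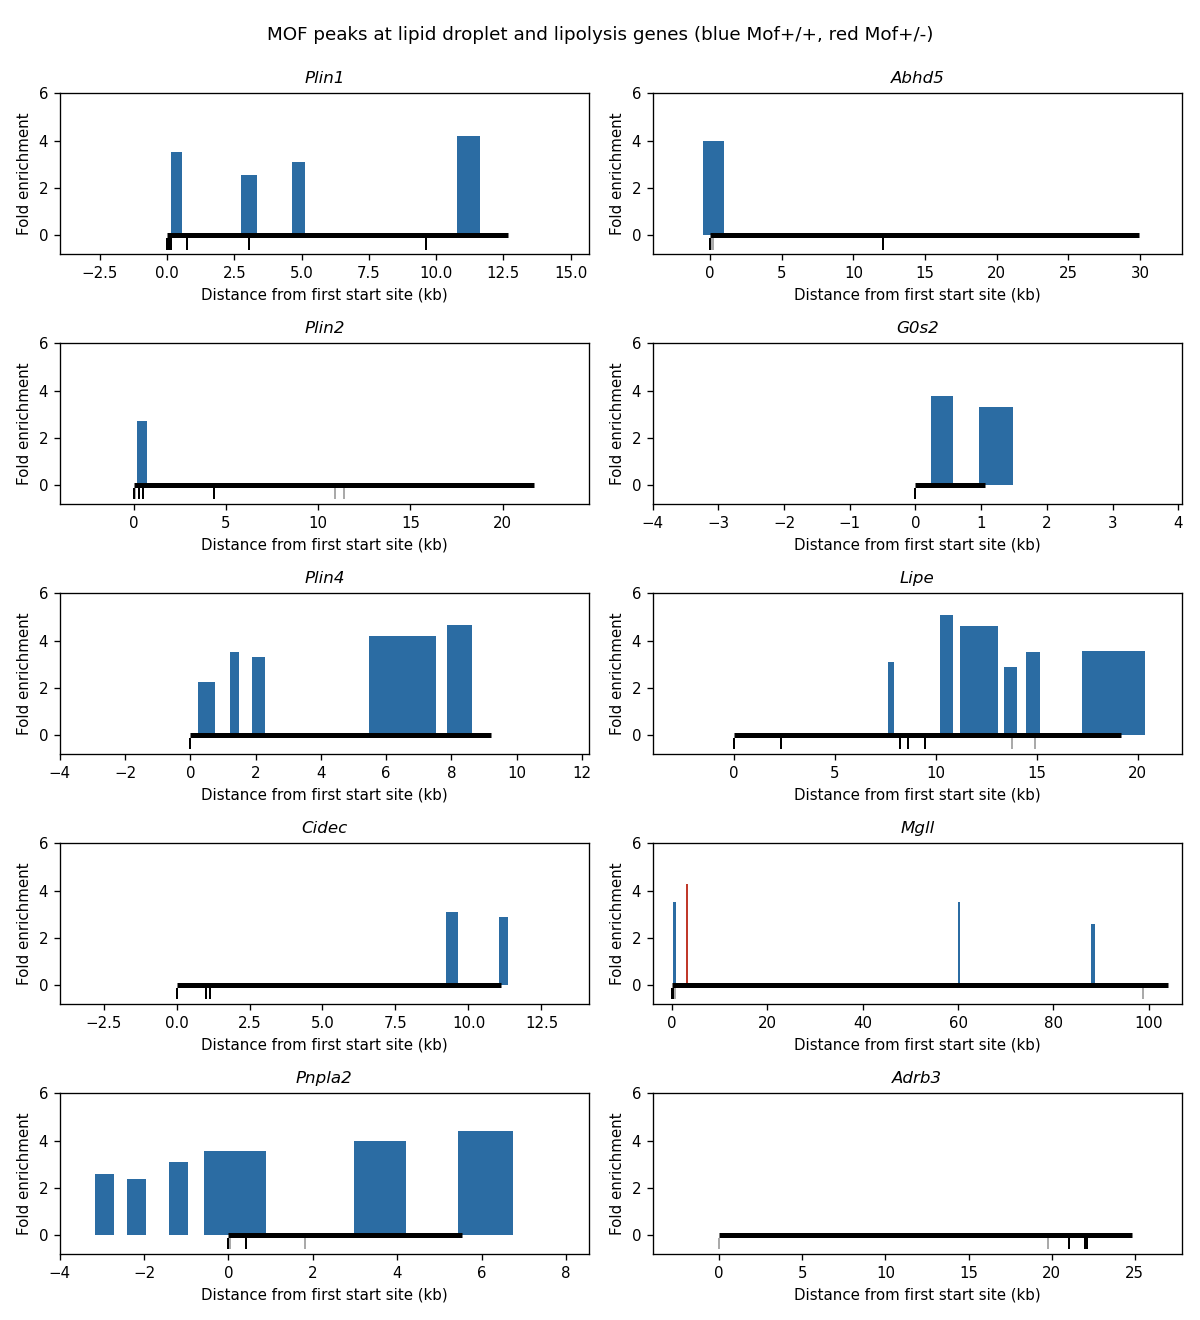
MOF peaks at each of the 10 genes. The x axis is the distance in kb from the first annotated start site in the direction of transcription, bar width is peak width and bar height is fold enrichment, with Mof+/+ peaks in blue and the Mof+/- peak in red; the thick line is the gene body, and ticks under it mark start sites (black protein-coding, grey non-coding transcripts). Lipe and Pnpla2 carried 6 Mof+/+ peaks each, Adrb3 carried none, and the Mof+/- peak stood at Mgll.

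Plin1 encodes the main perilipin of white fat cells (chromosome 7, 79720218 to 79732903, minus strand). Its first peak, from 79732359 to 79732770, lay in an intron with its summit 143 bp from a start site and had a fold enrichment of 3.54. The next peaks into the gene had fold enrichments of 2.56 (79729549 to 79730166, over another start site) and 3.10 (79727762 to 79728271). The strongest stood near the 3′ end, from 79721259 to 79722122, with a fold enrichment of 4.20 from 18 fragments over a background of 3.52. Its summit was in an intron 10941 bp from the first start, so the highest value at Plin1 was not at its promoter. At 62.5 CpG sites per kb this peak was also the most CpG-rich of the 4.

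Plin2 encodes the perilipin found on droplets in most cell types (chromosome 4, 86648386 to 86670060, minus strand). Its only peak, from 86669358 to 86669873, covered start sites of the gene, with the summit 18 bp from one of them. The fold enrichment was 2.71, from 13 fragments over a background of 4.17, which put it at the 13.3th percentile of the Mof+/+ list. Plin2 thus had the weakest best peak of the 9 genes, and the rest of its body had none.

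Plin4 encodes a perilipin of white adipocytes that coats small new droplets (chromosome 17, 56100591 to 56109803, minus strand). In this gene fold enrichment was lowest beside the start and highest toward the 3′ end. The peak nearest the start, from 56109036 to 56109581, had a fold enrichment of 2.26 over a raised background of 6.96 and was at the 0.622th percentile of the list. The peaks that followed at 56108308 to 56108582 and 56107509 to 56107909 had 3.54 and 3.32. A peak 2079 bp wide from 56102263 to 56104341 had 4.20, and the last, from 56101161 to 56101935 with its summit in a UTR, had 4.65. The last peak rested on 20 fragments (exact Poisson 95% interval 12.2 to 30.9) and the first on 17 (9.90 to 27.2), so the number of fragments did not separate them and the difference in fold enrichment came with the difference in background. These intervals cover counting error only. For the pair at the 3′ end, the nearest start site belonged to another gene, 1658 bp and 3811 bp away.

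Cidec encodes the protein that joins droplets into the single large droplet of white adipocytes (chromosome 6, 113424634 to 113435760, minus strand). Both of its peaks were weak and at the 3′ end. The intronic peak from 113426131 to 113426543 had a fold enrichment of 3.10, and the other, from 113424396 to 113424713 with its summit just past the end of the gene, had 2.88. They held 13 and 12 fragments, the latter the lowest number among the 30 peaks. No start site of Cidec lay closer than 6524 bp to a Mof+/+ peak.

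Pnpla2, the gene of ATGL, was the most covered of the 10 (chromosome 7, 141455198 to 141460743, plus strand). A peak of 1473 bp from 141454621 to 141456093 covered 6 of its 7 start sites, with 25 fragments (exact Poisson 95% interval 16.2 to 36.9) over a background of 6.26 and a fold enrichment of 3.58. Upstream lay smaller peaks with fold enrichments of 2.59, 2.38 and 3.09, and the start site nearest to the first pair of these was that of another gene. An intronic peak from 141458183 to 141459406 had 3.98. The highest value, 4.42, was at the 3′ end, from 141460639 to 141461954, but that peak also covered the start site of Cracr2b, 249 bp from the summit, and cannot be assigned to Pnpla2 alone.

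The partners of ATGL differed in where their peaks lay. Abhd5 (chromosome 9, 122351608 to 122381524, plus strand) had 1 peak of 1405 bp from 122351147 to 122352551, over 5 of its 6 start sites, with its summit in coding sequence, a fold enrichment of 3.98 and 17 fragments. With 82.6 CpG sites per kb it was a CpG-rich promoter peak, as the printed stretch shows. G0s2 is a short gene of 1057 bp (chromosome 1, 193272161 to 193273217, minus strand) with a peak in its intron, from 193272653 to 193272975, at a fold enrichment of 3.76. A further peak at its 3′ end, from 193271733 to 193272245, had 3.32. The G0s2 start site itself lay 242 bp outside a peak, and both G0s2 peaks also lie within the body of another gene.

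Lipe, the gene of hormone-sensitive lipase, had the highest fold enrichment of the 30 peaks (chromosome 7, 25379527 to 25398710, minus strand). Its strongest peak, from 25387862 to 25388478, reached 5.09 with 22 fragments (exact Poisson 95% interval 13.8 to 33.3) over a background of 3.52 and was at the 91.8th percentile of the Mof+/+ list. The peak beside it, from 25385627 to 25387527, had 4.61. The remaining peaks of Lipe had 3.09, 2.90, 3.54 and 3.58 in fold enrichment, the last of them 3109 bp wide at the 3′ end, from 25378355 to 25381463. Lipe has several promoters, and the first start sites, which lie farthest upstream, lay at least 7661 bp from a peak. The start at 25396379 was 5331 bp from a peak, whereas the starts at 25390477, 25390106 and 25389224 were 285, 656 and 746 bp from one. Only the starts of non-coding transcripts, at 25383808 and 25384926, lay inside peaks. Another gene, 4732471J01Rik, overlaps the body of Lipe, and 1 of the 6 peaks covers a start site of it, so those 6 peaks cannot be given to Lipe alone.

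Mgll, the gene of monoglyceride lipase, was the longest of the 10 at 103949 bp (chromosome 6, 88724412 to 88828360, plus strand) and the only member of the set with peaks in both lists. In the Mof+/+ list it had a peak over its start, from 88724606 to 88725295, with a fold enrichment of 3.54 and 94.2 CpG sites per kb, the highest CpG density of the 30. The others lay deep in introns, from 88784308 to 88784915 with 3.54 and from 88812337 to 88813031 with 2.59. Equal values of this kind arise because fold enrichment moves in whole fragments over a background that is often the same, and 15 fragments over 3.52, with 1 added to each, gives 3.54.

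Adrb3, the gene of the beta-3 adrenergic receptor (chromosome 8, 27225776 to 27250616, minus strand), had no peak in either list. The nearest Mof+/+ peak was 9972 bp from its annotated extent, which includes a non-coding transcript that begins far upstream, and 31000 bp from its nearest protein-coding start site. The nearest Mof+/- peak was 6912969 bp away. At the lowest background a Mof+/+ peak needed 11 fragments and a fold enrichment of 2.65, so weaker signal at Adrb3 was not detectable in this list, and MOF may still have been there below it.

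As a set, the 30 peaks were ordinary in height for the Mof+/+ list. Their fold enrichment ranged from 2.26 to 5.09 with a median of 3.54 and quartiles of 2.94 and 3.93, beside a median of 3.40, quartiles of 2.90 and 4.17 and a maximum of 23.0 over the whole list. The median width was 612.5 bp against 609.0 bp, and the median number of fragments at the summit was 15.5 (range 12 to 25) against 16. The background was the lowest of the list at 18 of the 30, and at 49.9% of all Mof+/+ peaks. Strongest peaks per gene ran from Lipe (5.09), Plin4 (4.65), Pnpla2 (4.42) and Plin1 (4.20) through Abhd5 (3.98), G0s2 (3.76) and Mgll (3.54) to Cidec (3.10) and Plin2 (2.71). Neighbours in that order were not separated by counting error, and even the 22 fragments of Lipe and the 13 of Plin2 had exact Poisson 95% intervals that overlapped, 13.8 to 33.3 and 6.92 to 22.2.

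**Figure D2:**
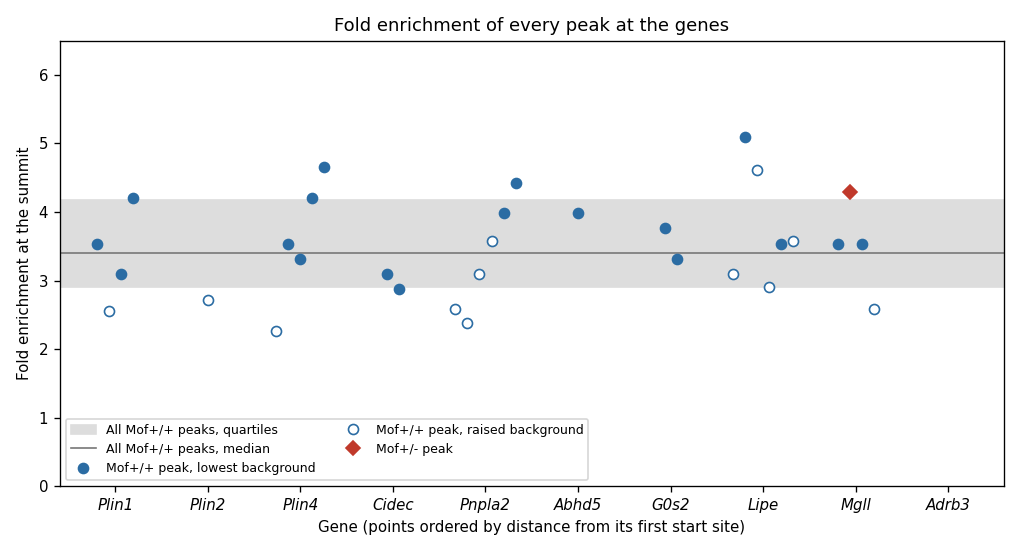
Fold enrichment at the summit (y axis) of every peak at the 10 genes (x axis). Blue circles are Mof+/+ peaks, filled where the background was the lowest of the list (18) and open where it was raised (12), the red diamond is the Mof+/- peak at Mgll, and the grey band and line are the quartiles and median of all Mof+/+ peaks (2.90, 3.40 and 4.17). Most points lie within the band, and the highest, at Lipe, is 5.09.

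Many of these peaks lay away from gene starts. For 18 of the 30 (60.0%) the summit lay over 1 kb from every annotated start site of any gene, and for 47.6% of all Mof+/+ peaks it did. Summits fell in introns of the gene for 18 peaks, in UTRs for 3, in coding sequence for 2 and in another exon for 1, while 3 were upstream and 3 downstream of the gene. Only 7 peaks, at 6 genes, covered a start site of their own gene, and 15 lay within 1 kb of one. At Lipe the start sites covered were those of non-coding transcripts only. In Plin1, Plin4, Pnpla2 and Lipe, the peak with the highest fold enrichment was not the one nearest the first start. By fragments this did not hold at Pnpla2, where the start peak had 25 (exact Poisson 95% interval 16.2 to 36.9) and the 3′ peak 19 (11.4 to 29.7), and at Plin1 the 18 and 15 fragments had intervals that overlapped. The nearest start site belonged to the gene itself for 20 peaks and to another gene for 10.

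The peaks held fewer CpG sites than most of the list, the dinucleotide that is dense in many gene starts. Their median was 17.5 CpG sites per kb (range 1.95 to 94.2), beside 24.5 (quartiles 12.0 and 62.9) over all Mof+/+ peaks, and 9 of the 30 were above that list median. Set against what the C and G content would give, the observed number of CpG sites had a median ratio of 0.242 against 0.402, and 5 of the 30 exceeded the latter. The median was 19.4 per kb in the 15 peaks within 1 kb of an own start site and 10.1 in the other 15. The high values were at Mgll (94.2), Abhd5 (82.6), the 3′ end of Plin1 (62.5) and the start of Pnpla2 (46.8), and 3 of these 4 cover start sites. GC content was close to the list, at a median of 52.1% against 52.4%. Chromatin had been cut with CviKI-1, an enzyme that cuts at purine, G, C, pyrimidine, and its sites were at 24.7 per kb (range 0 to 39.5) in these peaks and 21.2 over the list. The part of cutting sites in the peak positions was not tested.

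**Figure D3:**
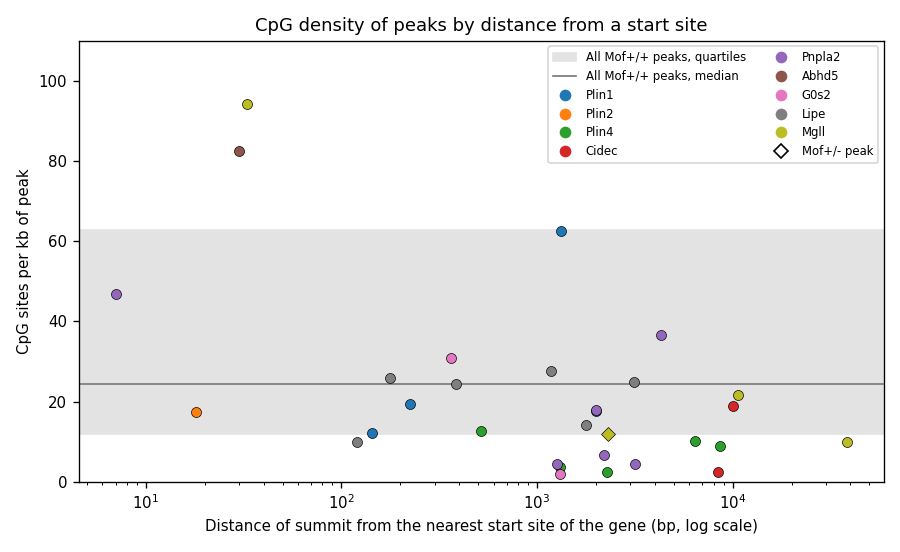
CpG sites per kb of peak (y axis) against the distance in bp from the summit to the nearest start site of the same gene (x axis, log scale). Circles are the 30 Mof+/+ peaks coloured by gene, the diamond is the Mof+/- peak at Mgll, and the grey band and line are the quartiles and median of all Mof+/+ peaks. The start peaks of Mgll (94.2) and Abhd5 (82.6) stand above the band, and most other peaks lie under the median of 24.5.

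Known promoter letters were searched in the 300 bases around each summit, on both strands. The hexamer AGGTCA, which nuclear receptors such as PPARγ read, was in 7 of the 30 and in 16.3% of all Mof+/+ peaks, as in 16.3% of 32851 promoters of the same length in RefSeq (GRCm38.p6). A pair of these hexamers in the same direction 1 base apart was in 0 of the 30, in 0.0658% of all peaks and in 0.0396% of promoters. The GC box GGGCGG was in 4 of 30, against 28.2% of peaks and 35.7% of promoters, and CCAAT was in 5 of 30, against 25.7% and 37.4%. TATAAA was in 0 of 30, against 9.28% and 13.6%, and CACGTG in 2, against 6.08% and 7.15%. A match is a run of letters and not a bound site. RefSeq listed 12 promoters for 9 of the 10 genes, all but Adrb3. These ranged from 2 CpG sites at Plin1 to 42 at Mgll, beside a median of 7 over all promoters listed. Lipe had 1 promoter with 19 CpG sites and 6 GC boxes and another with 2 CpG sites and no GC box, and the former was the one far from any peak.

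To ask how the same genes looked in Mof heterozygotes, the Mof+/- list was searched by the same rule. Of the 10 genes 1, Mgll, had a Mof+/- peak, while 1.89% of all protein-coding genes had one. Within 1 kb of a start site none of the 10 had one, and 1.32% of all genes did. The Mgll peak ran from 88727293 to 88727792 in an intron, 2969 bp from the first start, with a fold enrichment of 4.29, a −log10 p of 6.89, a −log10 q of 2.69 and 13 fragments (exact Poisson 95% interval 6.92 to 22.2) over a background of 2.26. It did not lie on a Mof+/+ peak. The nearest, that of the Mgll start, ended 1998 bp before it, and the start site of another gene was nearer to its summit (1521 bp) than those of Mgll. At the depth of the Mof+/+ list the same enrichment would have meant 20.2 fragments (10.8 to 34.6), while 11 were needed at the lowest background. Of the 30 Mof+/+ peaks at the 10 genes 0 overlapped a Mof+/- peak, and of all Mof+/+ peaks 2.44% did, so an overlap was rare over the whole list. In tissue of mixed cells, fewer cells of a type and less MOF per cell cannot be told apart.

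The lists were not equally able to show a peak, and this bears on the missing Mof+/- peaks. Mof+/+ peaks stood on a background of at least 3.52 fragments and the Mof+/- peak at Mgll on one of 2.26, the lowest of its list, 1.56 times less. The weakest listed −log10 p was 3.25 for Mof+/+ and 4.72 for Mof+/-. At the lowest background both lists needed 11 fragments, which is a fold enrichment of 2.65 in Mof+/+ and 3.68 in Mof+/-. A Mof+/+ peak at the lowest background had to hold 18 fragments, a fold enrichment of 4.20, to keep enough fragments once scaled to the Mof+/- depth, and one on a raised background could pass at a lower fold enrichment, as the Pnpla2 and Lipe peaks with 25 fragments did at 3.58. Of the 30 peaks 8 (26.7%) did, beside 30.1% of the 19755 Mof+/+ peaks for which fragments could be recovered. These 8 were the 3′ peak of Plin1, the wide and the 3′ peak of Plin4, the start and the 3′ peak of Pnpla2, and the 3 peaks of Lipe with 20, 22 and 25 fragments. For these the same enrichment would have been past the weakest Mof+/- p-value, and 0 of the 8 overlapped a Mof+/- peak. Over the whole list 5.64% of the 5942 Mof+/+ peaks that kept enough fragments overlapped one, so 0 of 8 is near the background and does not set these genes apart. The other 22 peaks, with all of those at Plin2, Cidec, Abhd5, G0s2 and Mgll, would have missed the weakest Mof+/- p-value at unchanged enrichment. Under this limit their absence from the Mof+/- list gives no direction. That p-value belongs to a list cut at a q-value of 0.1. It thus depends also on how many regions were enriched in Mof+/-, and not on depth alone. The scaling was not repeated with the weakest Mof+/+ p-value. Abhd5 missed narrowly, with 10.9 scaled fragments against 11. The scaling brings fragments and background down by the same ratio and leaves counting error out.

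**Figure D4:**
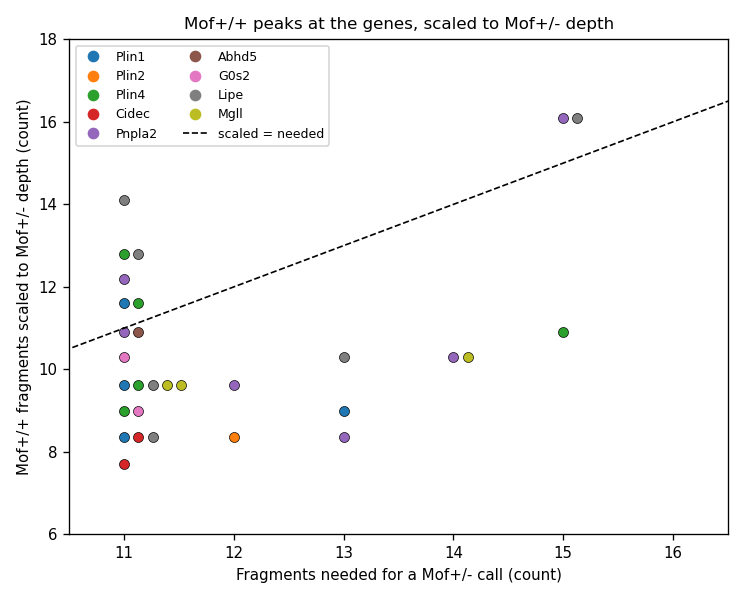
Fragments of each Mof+/+ peak at the 10 genes scaled to the depth of the Mof+/- list (y axis) against the number needed there for a peak at the same scaled background (x axis), coloured by gene, with equal points set side by side. The 8 points above the dashed line of equality belong to Plin1, Plin4, Pnpla2 and Lipe, and the other 22 lie under it.

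Other genes of the pathway showed how far this extended. Of 45 further genes in 4 groups, 26 (57.8%) had a Mof+/+ peak by the same rule, beside 44.5% of all protein-coding genes. Within 1 kb of a start site 22 (48.9%) had one, beside 41.0%. A Mof+/- peak was at 0 of the 45 and at 1.89% of all protein-coding genes, so this 0 is near the background. Among other lipid droplet proteins 9 of 15 had a Mof+/+ peak, led by Aup1 (fold enrichment 5.97), a droplet protein with a role in protein degradation at the endoplasmic reticulum, and Bscl2 (5.15), the gene of seipin, which organises new droplets. Among other lipid hydrolases 3 of 6 had one, led by Ddhd2 (3.98), a lipase, and Lipa (3.41), the acid lipase of lysosomes. Of the receptors that start or stop lipolysis 4 of 10 had one, among them the insulin receptor gene Insr (5.09), so that Adrb3 shared its lack of a peak with 6 other receptor genes. Of the genes of the cAMP pathway and of product export 10 of 14 had one, led by the G protein subunits Gnai2 (5.53) and Gnas (5.31). Single peaks at Aup1, Bscl2, Gnai2 and Gnas thus stood above the 5.09 of Lipe.

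**Figure D5:**
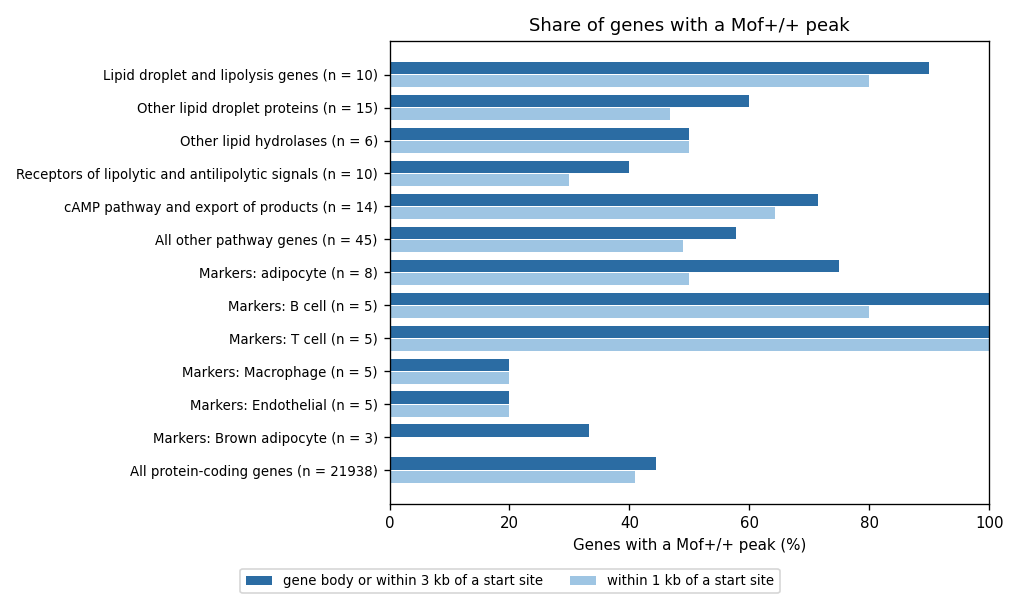
Share of genes with a Mof+/+ peak (x axis, percent) in each gene list (y axis, with the number of genes), by gene body or within 3 kb of a start site (dark bars) and within 1 kb of a start site (light bars). The shares were 90.0% and 80.0% for the 10 lipid droplet and lipolysis genes, 57.8% and 48.9% for the 45 other pathway genes, and 44.5% and 41.0% for all protein-coding genes; the lists are short and were not compared by a test.

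Markers of the cells in the tissue were read in the same way. Of 8 adipocyte genes 6 had a Mof+/+ peak, with strongest fold enrichments of 2.65 to 3.62, and 4 had one within 1 kb of a start site, Adipoq among them, whereas Lep and Retn had none. The shares over all protein-coding genes were the 44.5% and 41.0% given above. All 5 B cell genes (3.10 to 7.52) and all 5 T cell genes (2.26 to 5.75) had a peak. Of the macrophage genes 1 of 5 had one, of the endothelial genes 1 of 5 and of the brown adipocyte genes 1 of 3, with none at Ucp1. In the Mof+/- list, where 1.89% of all genes had a peak, the only marker with one was the B cell gene Pax5. The part of these other cells in the peaks at the lipid droplet and lipolysis genes was not tested.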

How the data were processed

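By the methods of the study, snakePipes was used to map reads (GRCm38), and the authors ran MACS2 2.1.1.20160309.3 with input as control and a q-value cutoff of 0.1. For each peak the fold enrichment deposited is the ratio of ChIP fragments plus 1 to local input background plus 1 at the summit. The −log10 p and −log10 q values deposited with it come from the same caller, as does the summit position. In each list 1 value column was not used. The study also describes joining peaks up to 1000 bp apart with bedtools. The deposited lists still hold neighbours closer than that (joining them turns the 6 Mof+/+ peaks of Lipe into 3), so they were used as not joined. Whether libraries were pooled before peak calling is not given in the sources used here. The list of a genotype was identified by its name. The design text speaks of 3 Mof+/- animals and the labels of 2 libraries. The MOF antibody of the labels differs from that of the study's reporting summary. H3 libraries were not analysed here.

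Genes came from GENCODE mouse release M21 and sequence from GRCm38.p6. A peak counted for a gene when it shared at least 1 bp with its body or with a window of 3000 bp (promoter 1000 bp) around an annotated start site. Fragments and background were recovered from fold enrichment and p-value (tolerance 0.001 in −log10 p) for 99.91% of Mof+/+ and 97.95% of Mof+/- peaks, by code tested on simulated data. Chromosomes other than 1 to 19, X and Y were left out, which kept 19753 and 716 peaks. Python 3.11.15, pandas 2.3.3, numpy 2.4.6, scipy 1.17.1 and pysam 0.24.0 were used. The 10 genes, the other lists and the rules were chosen with earlier results of these data known. All 10 genes are named. Of the other pathway genes, those with a Mof+/- peak and the 2 with the highest fold enrichment in each group are named, except 1 that is not reported here, and a neighbouring gene where a peak covers its start site. Alternatives changed the windows, the q-value, the start sites, the overlap, the merging of peaks and the assignment to genes.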

Additional observations from a re-analysis of the deposited data

How the results depend on the processing

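Of 84 recomputed values over the lists, under 11 alternatives, 80 stayed within 1.5 times of the reported count or, for the median fold enrichment, within 1 SD (0.715), and 4 did not. The number of the 10 genes with a Mof+/- peak was 0 in place of 1 with peaks kept up to a q-value of 0.001 and also when each peak was given only to the gene with the nearest start site, since the Mgll peak was then dropped. With a window of 3 kb for promoters it became 1 of 10 within that distance of a start site, again Mgll. With that q-value limit the Mof+/+ peaks at the 10 genes were 16 in place of 30. Of 110 recomputed counts of Mof+/+ peaks at single genes 25 moved further than that. Cidec had 0 peaks when only windows around start sites or the nearest start site counted, Plin2 had 0 with a q-value limit of 0.01, Pnpla2 and Lipe had 3 each and Plin4 had 2 when peaks within 1000 bp were merged, and Adrb3 had 1 with a window of 10 kb.

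Each Mof+/+ peak at the 10 genes rests on 12 to 25 fragments, and 1 list per genotype gives no replicate error. No paired analysis was possible because the columns of the lists carry no replicate number and the results come from no test. Leaving out a replicate was not possible for the same reason.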
